A study of Mus musculus with 9 samples.

Results

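Glycolysis and hypoxia-response genes were followed in embryonic fibroblasts from mice that differ in Rb1, which encodes the retinoblastoma protein. The set was fixed by name as 35 genes with 4 roles, and a gene was read from the probe set with the highest mean over all 9 arrays among those annotated to its symbol alone. In all, 33 of the 35 were measured, out of 19938 genes on the array. They comprise 14 of 16 glycolytic enzymes, 4 transporters of glucose and lactate, 4 kinases that set the flux through glycolysis or into the mitochondrion, and 11 other targets of the hypoxia-inducible factors (HIF). Gpi1 and Eno1, the remaining enzymes, were not analysed here. The groups were wild-type cells (WT, Rb +/+), cells homozygous for an allele mutated at the common E2F interaction site of the protein (ΔG, labelled Rb ∆G/∆G), and cells without functional Rb (null, Rb -/-), with 3 arrays each. All cultures shared one regime: cells were plated in 15 cm dishes, and after 24 h the serum was lowered to 0.1% to induce quiescence. The cultures were matched within litters, but no label says which arrays came from one litter or embryo, so p-values reflect the spread among these samples, part of which may be technical. The labels give neither the time in low serum nor the oxygen level, the strain or the age of the embryos.

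Glycolysis splits glucose into pyruvate in the cytosol, and lactate dehydrogenase turns pyruvate into lactate, which leaves the cell through monocarboxylate transporters. HIF is a pair of proteins whose alpha subunit is hydroxylated by oxygen-dependent prolyl hydroxylases and then destroyed. When oxygen is scarce it persists, binds DNA at sites that often hold ACGTG and raises many genes of sugar metabolism, vessel growth and matrix synthesis. Most glycolytic enzymes are HIF targets, but they also answer to growth signals and Myc, whereas genes such as Egln3, Ankrd37 and Car9 are used as reporters of hypoxia itself.

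The arrays were comparable in scale, with medians of 6.329 to 6.401 on the log2 scale, in which 1 unit is a doubling of signal. Rb1 signal was 8.93, 9.17 and 9.16 in WT, 9.53, 9.76 and 9.54 in ΔG and 8.18, 8.58 and 8.19 in null. It fell by 0.77 in null (limma adjusted p = 0.0012) and had a log2 difference of 0.53 in ΔG (adjusted p = 0.075). The part of the gene that the null allele lacks is not stated, so the remaining signal does not test the labels. Xist, the RNA of the silenced X chromosome, was 11.42 to 11.98 on the null arrays and WT replicate 3 and 4.24 to 4.45 on the other 5 arrays. Null and ΔG therefore differ fully in sex pattern, and genotype and sex cannot be told apart between them. Defining fibroblast markers were high on every array, at a mean signal of 11.16 to 11.48 in WT, 11.08 to 11.29 in ΔG and 10.72 to 10.89 in null, and 7 of the 10 fell in null. Among 19 G1/S genes regulated by E2F, 19 rose in null and 14 in ΔG, and among 15 mitotic genes 15 rose in null and none in ΔG (limma, 1 at an unadjusted p under 0.05). Of all genes 8.38% rose and 10.1% fell in null, while 0.602% rose in ΔG. In these bulk samples a lower share of one kind of cell cannot be told from less RNA per cell.

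Promoter windows are shown for the 4 members that were called in null against both other genotypes and hold ACGTG, so that the matches can be read beside their values. They are 4 of 7 such members with a window, and the windows of Pfkl, Tpi1 and Pdk1 hold no ACGTG. Other forms of the HIF site were not searched, so a window without ACGTG is not shown to lack one. Windows run from 250 bases before to 50 after an annotated start (RefSeq, GRCm38.p6) and were found for 31 of the 33 measured members. Of a gene with several starts the window with the most ACGTG matches is shown, and a second Ldha window held 0. Capitals mark ACGTG on either strand, and sequences read 5′ to 3′ on the strand of the gene. The windows are chr7:46845554-46845853 (plus strand) for Ldha, chrX:106186850-106187149 (plus) for Pgk1, chr3:104638414-104638713 (plus) for Slc16a1 and chr4:43506776-43507075 (plus) for Car9.
Ldha: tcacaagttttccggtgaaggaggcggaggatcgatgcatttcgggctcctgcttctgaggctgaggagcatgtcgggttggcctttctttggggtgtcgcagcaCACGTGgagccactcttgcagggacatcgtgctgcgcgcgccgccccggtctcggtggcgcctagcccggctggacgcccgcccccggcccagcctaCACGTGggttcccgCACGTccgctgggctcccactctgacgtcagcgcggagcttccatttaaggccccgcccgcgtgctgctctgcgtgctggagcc
Pgk1: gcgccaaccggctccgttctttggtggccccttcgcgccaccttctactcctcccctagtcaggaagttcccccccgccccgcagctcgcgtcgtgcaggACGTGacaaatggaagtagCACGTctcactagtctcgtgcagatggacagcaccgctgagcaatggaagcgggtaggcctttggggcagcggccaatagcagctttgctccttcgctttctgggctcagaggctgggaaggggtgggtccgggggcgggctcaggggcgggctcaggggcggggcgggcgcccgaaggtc
Slc16a1: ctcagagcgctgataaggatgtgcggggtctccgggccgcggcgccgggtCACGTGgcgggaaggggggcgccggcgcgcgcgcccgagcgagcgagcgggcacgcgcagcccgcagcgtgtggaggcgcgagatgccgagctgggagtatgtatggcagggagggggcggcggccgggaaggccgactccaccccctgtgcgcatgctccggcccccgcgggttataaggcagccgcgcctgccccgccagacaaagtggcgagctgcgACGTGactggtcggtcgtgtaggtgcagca
Car9: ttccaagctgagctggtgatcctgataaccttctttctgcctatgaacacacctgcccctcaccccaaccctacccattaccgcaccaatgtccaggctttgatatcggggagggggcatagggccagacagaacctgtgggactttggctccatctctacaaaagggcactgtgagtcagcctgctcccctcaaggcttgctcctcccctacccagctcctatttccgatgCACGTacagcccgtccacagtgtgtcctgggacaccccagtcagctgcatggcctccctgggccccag
Ldha held 5 matches, the first bases of which lay at −145, −144, −48, −47 and −34 from the start, because the palindrome CACGTG counts once on each strand. Pgk1 held 2, at −150 and −131, Slc16a1 held 3, at −200, −199 and 20, and Car9 held 1, at −18. Over the set, 22 of 31 genes had ACGTG in a window (71.0%), against 21.8% of 27025 genes with a window. By role these were 9 of 14 enzymes, 3 of 3 transporters, 2 of 4 kinases and 8 of 10 other HIF targets. E2F-like words were searched on both strands, with TTCCCGC as the common form, TTGGCGC as another form, TTCGCGC as a further form and TTGCCGC as the last. They occurred in 9 of the 31, against 10.9% of all genes, and 7 of those 9 were enzymes. Of the windows shown, Pgk1 held 2 such words and Ldha and Slc16a1 held 1 each. Many of the genes were picked as known HIF targets, so these shares describe the set, and a match does not show binding.

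**Figure D1:**
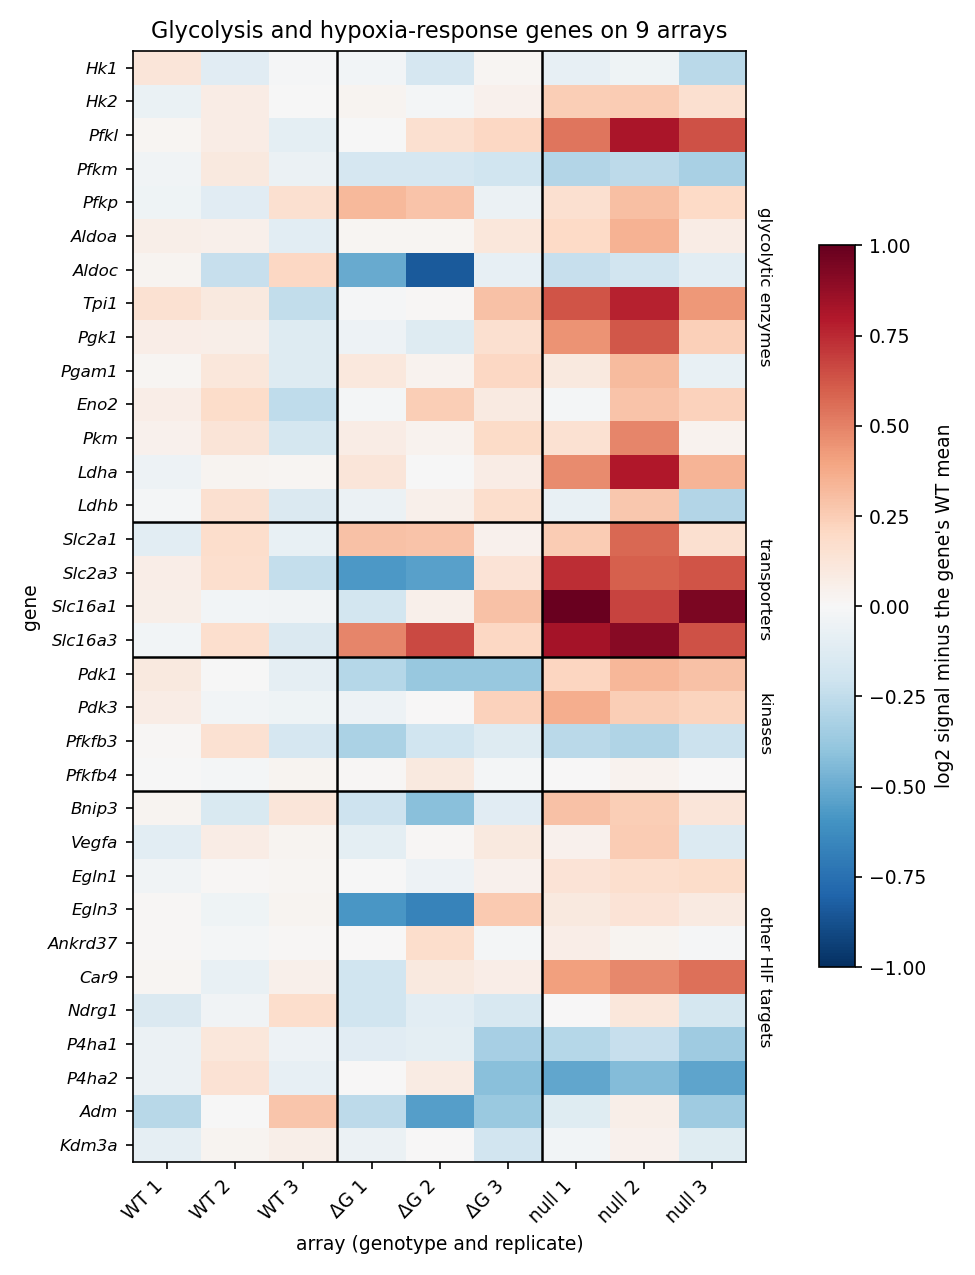
Each row is one of the 33 measured genes and each column 1 of the 9 arrays; colour gives the log2 signal minus the mean of that gene's 3 WT arrays, and black lines part the roles and the genotypes. The null columns are red for Pfkl, Tpi1, Ldha and 3 of the 4 transporters, while ΔG replicates 1 and 2 are blue for Aldoc, Slc2a3 and Egln3 and ΔG replicate 3 is pale or red.

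The first comparison asked how these genes differ when Rb is absent. In null cells 11 of the 33 members rose and 3 fell (limma, adjusted p under 0.05 over all genes), that is 42.4% of the members, where 18.4% of all genes were called. Among all genes 8.38% rose and 10.1% fell. At an unadjusted p under 0.05, 19 members and 30% of all genes stood apart. The null arrays lay above all WT arrays for 15 members and below them for 4, which holds for 15.7% and 18.9% of all genes (34.7% in all). The median log2 difference of the members was 0.17, against −0.01 over all genes. The largest rises were in lactate and glucose transport and at scattered enzymatic steps from phosphofructokinase to lactate dehydrogenase, and the largest fall was in a collagen-modifying enzyme.

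Of the 14 enzymes 5 rose and 1 fell in null. Pfkl encodes the liver-type subunit of phosphofructokinase, the main control point of glycolysis. Its log2 signal was 7.79, 7.85 and 7.67 in WT and 8.30, 8.59 and 8.41 in null. The groups did not overlap, and Pfkl rose 1.58-fold (log2 0.66, SE 0.09, limma adjusted p = 0.00061). The muscle-type subunit Pfkm went the other way, from 8.62, 8.75 and 8.59 in WT to 8.36, 8.39 and 8.33 in null. It fell by 0.29 (SE 0.07, limma adjusted p = 0.011), while the platelet-type subunit Pfkp stood at 6.75, 6.68 and 6.95 in WT and 6.95, 7.09 and 6.99 in null (log2 0.22, SE 0.11, adjusted p = 0.21). The 3 subunits of one enzyme were thus not called alike, with Pfkl above, Pfkm below and Pfkp not past the threshold.

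Tpi1, triose phosphate isomerase, lay at 9.39, 9.33 and 8.98 in WT and 9.86, 10.003 and 9.66 in null. It rose 1.53-fold (log2 0.61, SE 0.13, limma adjusted p = 0.0062), and WT replicate 3 was the lowest of all arrays. Pgk1, phosphoglycerate kinase, the first step that yields ATP, measured 10.07, 10.07 and 9.88 in WT and 10.46, 10.63 and 10.25 in null, a 1.35-fold rise (log2 0.43, SE 0.11, limma adjusted p = 0.017). Pgk1 lies on the X chromosome, and 2 of its 3 probe sets, the one used among them, carry identical values, so which copy of the sequence they report is uncertain. Its other probe set gave a log2 difference of 0.42. Ldha, the lactate dehydrogenase subunit that favours lactate production, went from 10.88, 10.96 and 10.95 in WT to 11.41, 11.74 and 11.27 in null. It rose 1.45-fold (log2 0.54, SE 0.11, limma adjusted p = 0.0046) with no overlap. Its partner subunit Ldhb had 7.78, 7.96 and 7.64 in WT and 7.72, 8.06 and 7.50 in null, overlapping throughout (log2 −0.03, 95% interval −0.32 to 0.26).

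Hk2, the inducible hexokinase that starts the pathway, was at 6.81, 6.96 and 6.88 in WT and 7.13, 7.14 and 7.04 in null. Its rise was 1.17-fold (log2 0.22, SE 0.07, limma adjusted p = 0.045), and the call was lost when any one of the 9 arrays was left out (adjusted p 0.051 to 0.15). Hk1, the constitutive form, had a log2 difference of −0.13 (95% interval −0.33 to 0.07), while its other, dimmer probe set had one of 0.07. The remaining enzymes did not pass: Aldoa, Pkm, Eno2 and Pgam1 had log2 differences of 0.21, 0.22, 0.17 and 0.12 (adjusted p 0.12 to 0.52) and Aldoc one of −0.18 (adjusted p = 0.54). Null replicate 2 had the highest signal of the 9 arrays for Hk2, Pfkl, Aldoa, Tpi1, Pgk1, Pgam1, Eno2, Pkm, Ldha and Ldhb. Every enzyme called higher in null is among them. Without single arrays Pfkl, Tpi1 and Ldha kept their calls. Pfkm lost its call without WT replicate 2 (adjusted p = 0.052), and Pgk1 without WT replicate 3 or null replicate 1 or 2 (adjusted p = 0.060, 0.057 and 0.065).

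Transport showed the largest differences of the set. Slc16a1 encodes the monocarboxylate transporter MCT1, which carries lactate in either direction. It read 7.80, 7.71 and 7.71 in WT and 8.73, 8.41 and 8.68 in null, a 1.83-fold rise (log2 0.87, SE 0.12, limma adjusted p = 0.00057). Slc16a3 encodes MCT4, the lactate exporter of glycolytic cells, and read 6.82, 7.03 and 6.71 in WT and 7.69, 7.76 and 7.49 in null. It rose 1.73-fold (log2 0.79, SE 0.12, limma adjusted p = 0.0012). Slc2a3, the high-affinity glucose transporter GLUT3, stood at 7.12, 7.22 and 6.81 in WT and 7.79, 7.65 and 7.68 in null, a 1.58-fold rise (log2 0.66, SE 0.17, limma adjusted p = 0.019). For all 3 the null arrays lay above every WT array. Slc2a1, the widespread glucose transporter GLUT1, had 10.51, 10.79 and 10.54 in WT and 10.87, 11.18 and 10.77 in null, so that the groups overlapped and the threshold was missed (log2 0.33, SE 0.12, adjusted p = 0.084). Both lactate transporters kept their calls without any single array, while Slc2a3 lost it without WT replicate 3, null replicate 1 or null replicate 3 (adjusted p = 0.069, 0.072 and 0.0504).

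Of the 4 kinases, both inhibitors of pyruvate dehydrogenase rose. Pdk1, which holds pyruvate back from the mitochondrion, was at 7.30, 7.19 and 7.11 in WT and 7.41, 7.53 and 7.49 in null (1.21-fold, log2 0.28, SE 0.07, limma adjusted p = 0.023). Pdk3, a related kinase encoded on the X chromosome, was at 9.28, 9.18 and 9.16 in WT and 9.57, 9.45 and 9.43 in null (1.21-fold, log2 0.28, SE 0.09, limma adjusted p = 0.045). The kinases that make fructose 2,6-bisphosphate, the activator of phosphofructokinase, did not pass. Pfkfb3 was lower on every null array than on every WT array, by a log2 difference of −0.26 (SE 0.09, adjusted p = 0.067), and Pfkfb4 had a difference of 0.01 (95% interval −0.13 to 0.16). Pdk1 lost its call on leaving out WT replicate 2 or 3 or null replicate 2 or 3 (adjusted p = 0.066, 0.080, 0.075 and 0.061). Pdk3 lost it on leaving out WT replicate 1, 2 or 3, ΔG replicate 2 or null replicate 1, 2 or 3 (adjusted p = 0.059, 0.12, 0.12, 0.056, 0.16, 0.080 and 0.068). Pfkfb3 fell when WT replicate 3 was left out.

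Among the 11 other HIF targets 1 rose and 2 fell in null. Car9, a carbonic anhydrase at the cell surface and a standard marker of hypoxia, was at 5.003, 4.91 and 5.03 in WT and 5.39, 5.46 and 5.54 in null. It rose 1.40-fold (log2 0.48, SE 0.09, limma adjusted p = 0.0034) without overlap, at a low signal below the array medians. P4ha1 and P4ha2 encode the catalytic subunits of the prolyl hydroxylase that modifies collagen. P4ha2 went from 8.20, 8.41 and 8.18 in WT to 7.74, 7.83 and 7.74 in null and fell by 0.49 (SE 0.12, limma adjusted p = 0.014). P4ha1 went from 10.80, 10.97 and 10.81 to 10.58, 10.63 and 10.50 and fell by 0.29 (SE 0.08, limma adjusted p = 0.034). The fibroblast collagens Col1a1, Col1a2 and Col3a1 fell by 0.49, 0.58 and 0.59 on the same arrays (limma adjusted p 0.0025 to 0.0062), and whether the 2 falls share an origin was not tested. Car9 kept its call without any single array. P4ha2 lost it without WT replicate 2 or null replicate 1 (adjusted p = 0.062 and 0.052), and P4ha1 without any one WT or null array (adjusted p 0.0508 to 0.13).

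The other 8 HIF targets did not pass in null. Vegfa, the vessel growth factor, had 9.17, 9.35 and 9.31 in WT and 9.32, 9.53 and 9.14 in null (log2 0.05, 95% interval −0.17 to 0.28). Ankrd37, Ndrg1 and Kdm3a, a demethylase induced by hypoxia, had log2 differences of 0.03, −0.02 and −0.03, with 95% intervals within −0.24 and 0.20. Ankrd37 had a low signal below the array medians, with means of 5.65 in WT and 5.68 in null. Adm, the vasodilator adrenomedullin, had a difference of −0.14 (−0.45 to 0.17). Egln3 and Egln1, prolyl hydroxylases that mark HIF alpha for destruction and are induced by it, had differences of 0.11 and 0.16 (adjusted p = 0.77 and 0.10), with all null arrays above all WT arrays for both. Bnip3, a mitophagy receptor, had one of 0.22 (SE 0.10, adjusted p = 0.16). The unadjusted 95% intervals of Egln1 (0.02 to 0.30) and Bnip3 (0.003 to 0.435) lay above 0. Bnip3 passed when its probe sets were averaged, since its second probe set had a difference of 0.37.

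**Figure D2:**
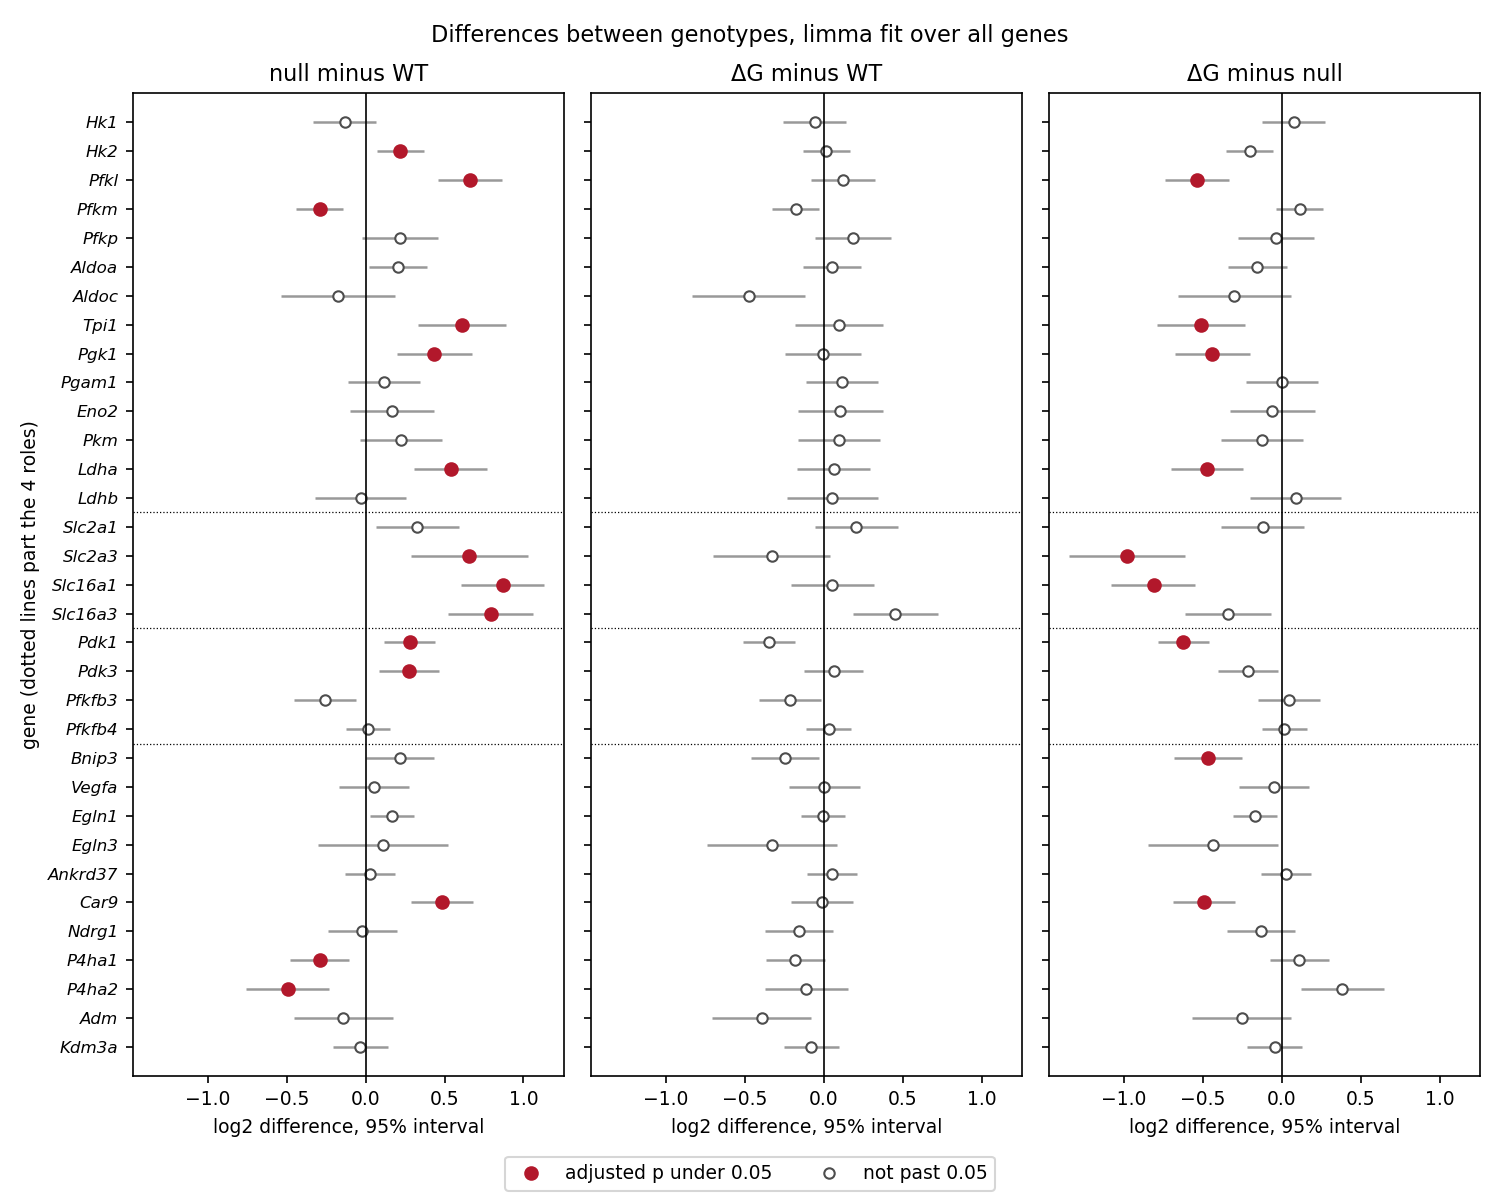
Points give the log2 difference of each gene in the 3 comparisons with 95% intervals of the limma fit (horizontal axis, log2 units), filled where the adjusted p over all genes is under 0.05. In null minus WT 14 points are filled, in ΔG minus WT none, and in ΔG minus null 9, all to the left of 0.

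Enzymes and other HIF targets were also set side by side, without a test of the difference between them. The enzymes had a median log2 difference of 0.21 in null minus WT and the other HIF targets one of 0.03. Above 0 were 10 of 14 enzymes and 6 of 11 other targets, where 47.5% of all genes were. In ΔG minus null the medians were nearly equal, at −0.139 for enzymes and −0.134 for other targets. Taking each gene as its deviation from its own mean, the enzyme mean minus the mean of the other targets was −0.02, −0.07 and −0.24 on the WT arrays, 0.03, −0.01 and 0.08 on the ΔG arrays and 0.04, 0.15 and 0.05 on the null arrays. All 6 mutant arrays thus lay above the WT arrays, but narrowly, at −0.009 on ΔG replicate 2 against −0.023 on WT replicate 1. WT replicate 3, the only WT array with the Xist pattern of the null arrays, stood apart at the low end. Enzyme means overlapped between WT (−0.04, −0.03 and −0.14) and ΔG (−0.08, −0.10 and 0.02). Means of the other targets were −0.02, 0.05 and 0.10 in WT and lower on every ΔG array, at −0.11, −0.10 and −0.06. Null arrays had 0.09, 0.27 and 0.02 for enzymes and 0.05, 0.12 and −0.02 for other targets. The medians rested partly on null replicate 2, without which they were 0.12 for enzymes and −0.05 for other targets. These values are descriptions, since the members were chosen with earlier results known.

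WT replicate 3, the WT array with the Xist pattern of the null arrays, allows a comparison within that pattern, in which this lone array is assumed to vary like the other groups. Against it alone, Pfkl, Tpi1, Pgk1, Slc2a3, Slc16a1, Slc16a3 and Pdk1 had log2 differences of 0.76, 0.86, 0.56, 0.89, 0.90, 0.94 and 0.37. Each of these differences was larger than against all WT arrays. Ldha and Car9 had differences of 0.52 and 0.43, smaller than against all WT arrays. Pfkm, P4ha1 and P4ha2 were at −0.23, −0.24 and −0.41, and Hk2 and Pdk3 at 0.23 and 0.32. With 1 WT array these values are given as sizes only. With a covariate for sex, the mean Y-linked signal of each array, 4 of the 33 members remained called. They were Pfkl, Tpi1, Slc16a1 and Slc16a3, at 0.77, 0.86, 0.87 and 0.99. Of all genes 7.92% were called with this covariate, against 18.4% without it. These 4 members were called in null minus WT under all 20 alternatives run.

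**Figure D3:**
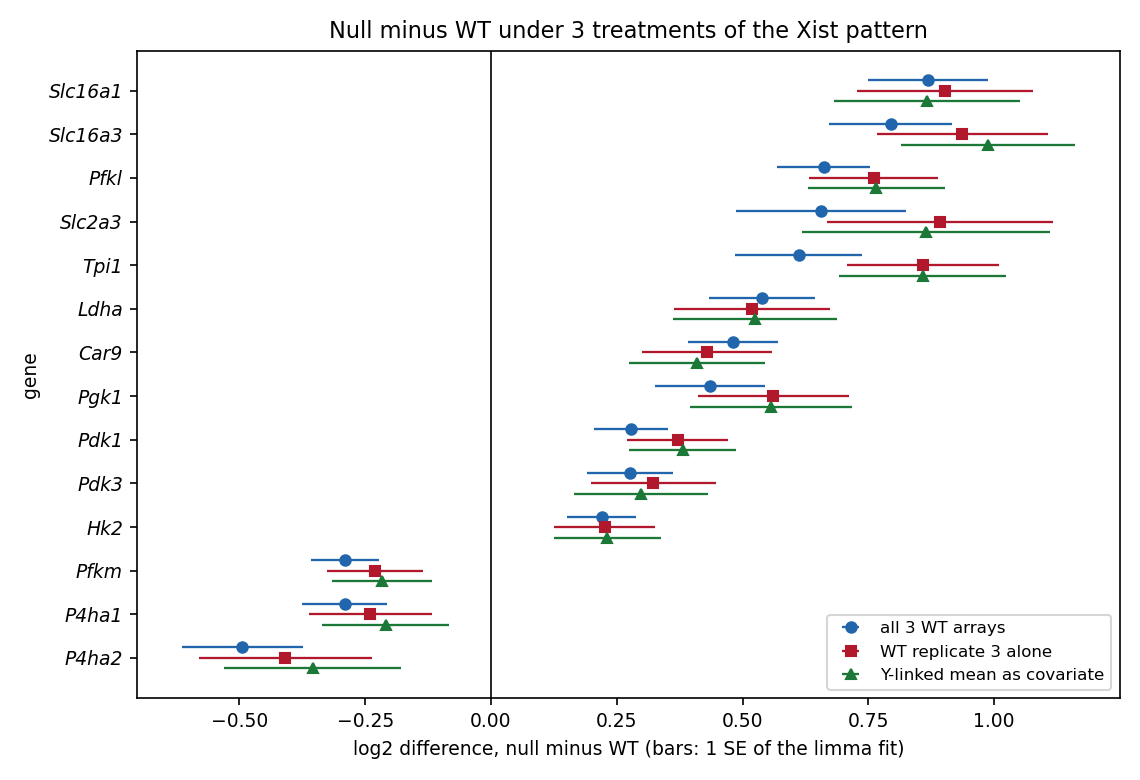
For the 14 members called in null minus WT, points give the log2 difference (horizontal axis) and bars 1 SE of the limma fit, using all 3 WT arrays (circles), WT replicate 3 alone (squares) or the mean Y-linked signal as covariate (triangles). No difference changes sign, and Tpi1 moves from 0.61 to 0.86 in both alternatives.

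The second comparison asked whether the loss of the common E2F contact alone has the same effect. No member passed in ΔG minus WT (limma), where 0.813% of all genes were called, 0.602% higher and 0.211% lower. An unadjusted p under 0.05 was found for 7 members and for 11.8% of all genes, and the set's median log2 difference was 0.00. Groups did not overlap for 1 member that was higher, Slc16a3, and 3 that were lower, Pfkm, Pdk1 and P4ha1, against 7.05% and 9.48% of all genes (16.5% in all). Only the alternatives with array weights and with the replicate number as a block called a member with all 9 arrays kept, Pdk1 and Slc16a3 respectively. The enzymes that rose in null did not pass in ΔG. Pfkl read 7.77, 7.93 and 7.98 (log2 difference 0.12, 95% interval −0.08 to 0.33), Tpi1 9.22, 9.24 and 9.52 (0.10, −0.18 to 0.38) and Ldha 11.06, 10.93 and 11.01 (0.06, −0.17 to 0.30). Pfkm, the enzyme that fell in null, read 8.49, 8.49 and 8.46, below every WT array (−0.18, −0.33 to −0.03, adjusted p = 0.32). Slc16a1 read 7.56, 7.80 and 8.04 (0.06, −0.21 to 0.32). The median over the 14 enzymes was 0.06, and over the 11 other HIF targets −0.11.

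The member with the lowest p of each role in ΔG was Aldoc, described with the split arrays, Slc16a3, Pdk1 or Adm, and their signs differed. Pdk1 was 6.92, 6.82 and 6.82 in ΔG, below every WT array, where it was higher in null (log2 −0.35, SE 0.07, limma adjusted p = 0.063). Slc16a3 was 7.34, 7.52 and 7.06, above every WT array as in null (log2 0.45, SE 0.12, limma adjusted p = 0.15). Adm, at 8.44, 8.15 and 8.34 against 8.43, 8.70 and 8.98 in WT, had a difference of −0.39 (adjusted p = 0.29).

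A group of members was split within ΔG. Egln3 was 5.82 and 5.73 on ΔG replicates 1 and 2, below WT at 6.41, 6.36 and 6.43, but 6.66 on ΔG replicate 3. Slc2a3 was 6.47 and 6.51 on those arrays and 7.18 on ΔG replicate 3. Aldoc, a brain-enriched aldolase, read 7.03, 6.76 and 7.20 in WT, 6.49 and 6.16 on the lower pair of ΔG arrays and 6.91 on ΔG replicate 3. With all ΔG arrays their log2 differences were −0.33, −0.33 and −0.48 and none passed. Without ΔG replicate 3, Egln3, Slc2a3 and Aldoc were lower by 0.62, 0.56 and 0.67 and Slc16a3 higher by 0.58 (limma adjusted p = 0.0029, 0.043, 0.037 and 0.039). In that fit 4 members were called in place of 0, where 1.26% of all genes were called in place of 0.813%. Egln3, Slc2a3 and Aldoc are grouped here because that array differed, so leaving it out is no independent test of them. Other measures also varied between replicates, in WT as well as in ΔG. The 16 macrophage markers, 16 of which were above the WT mean in ΔG and none called (limma, 2 at an unadjusted p under 0.05), had a mean signal of 7.17, 6.61 and 5.83 on ΔG replicates 1, 2 and 3 and of 6.55, 6.12 and 5.445 on WT replicates 1, 2 and 3. The mitotic genes had 7.94, 7.79 and 8.58 on the ΔG arrays and 8.27, 7.58 and 7.65 on the WT arrays. The part of either in the split was not tested.

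**Figure D4:**
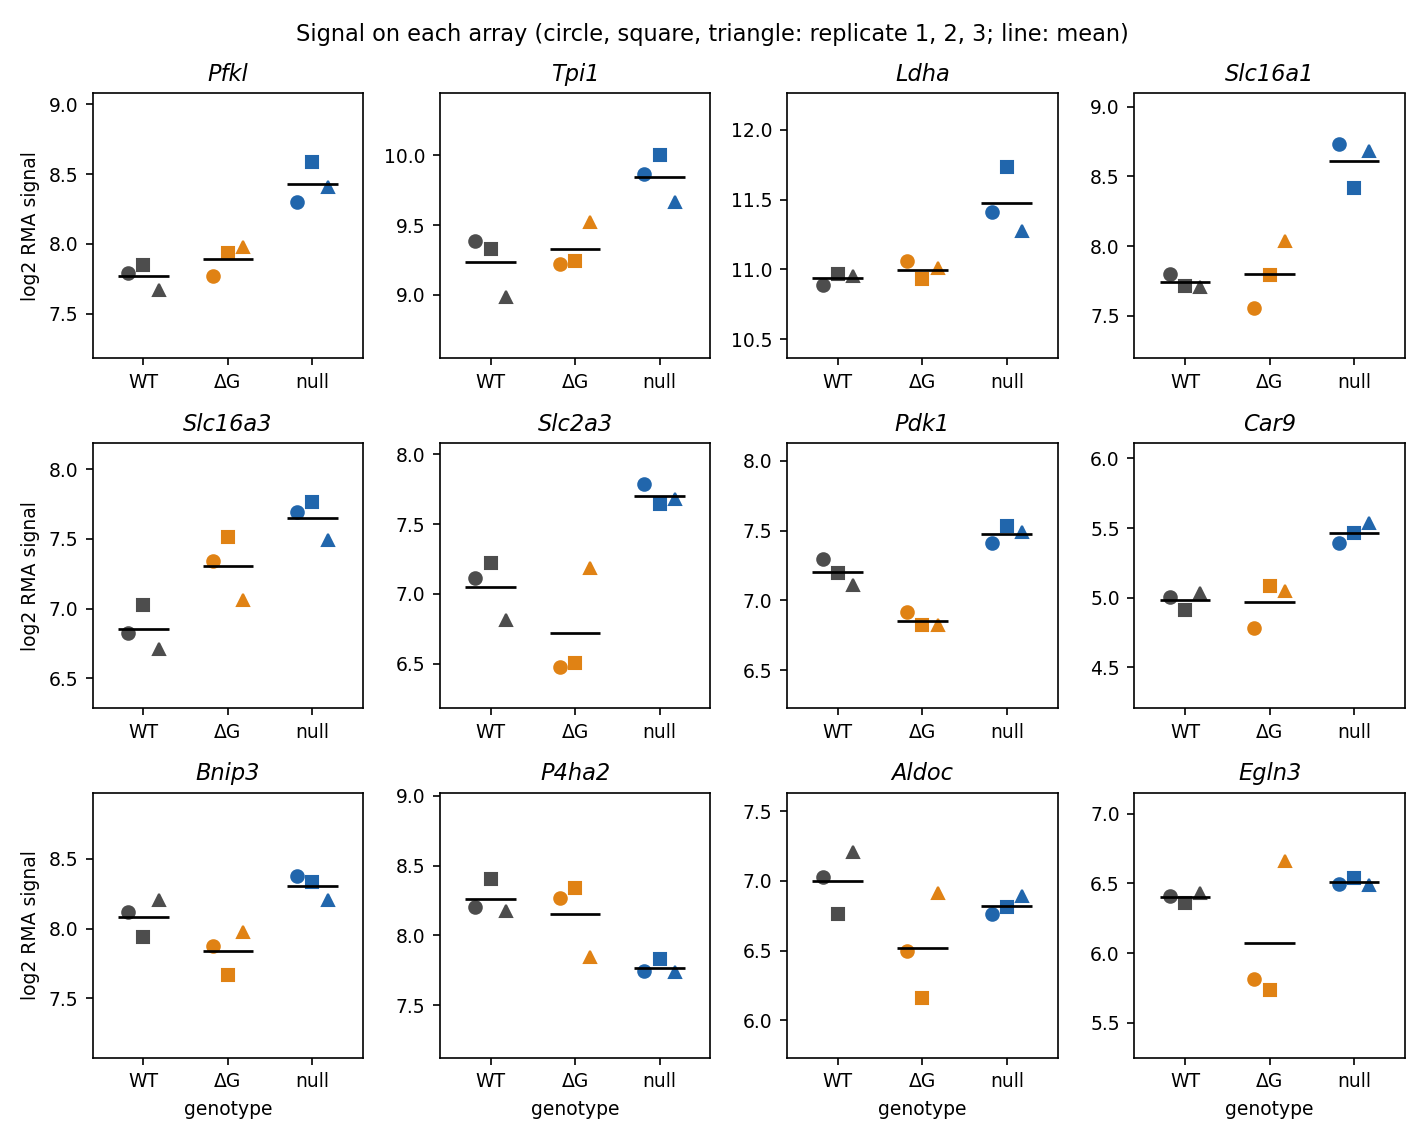
Log2 RMA signal (vertical axis, each panel spanning the same range) of 12 genes on the 9 arrays by genotype, with marker shapes for replicates and a line for the mean. The 3 null arrays lie above all other arrays for Pfkl, Tpi1, Ldha, Slc16a1, Slc2a3, Pdk1 and Car9, and ΔG replicate 3 (triangle) stands off from the other ΔG arrays for Slc2a3, Aldoc and Egln3.

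The third comparison set both mutants against each other. In ΔG minus null 9 members were lower in ΔG and none was higher (27.3% of members; 8.71% of all genes were called, 4.27% lower and 4.44% higher in ΔG). At an unadjusted p under 0.05 stood 15 members and 23.1% of all genes. The ΔG arrays lay below all null arrays for 11 members and above them for 2, Pfkm and P4ha2, where this held for 13.3% and 13.8% of all genes (27% in all). Pfkl, Tpi1, Pgk1 and Ldha were lower by log2 values of −0.54, −0.51, −0.44 and −0.47 (SE 0.09 to 0.13, limma adjusted p 0.0052 to 0.029). Slc2a3 was 1.98-fold lower in ΔG, the largest difference, and Slc16a1 1.76-fold lower (limma adjusted p = 0.0053 and 0.0023). Pdk1, 1.54-fold lower, had the lowest p of the members (log2 −0.62, SE 0.07, limma adjusted p = 0.00077), its ΔG arrays lying under the WT arrays and its null arrays above them. Car9 and Bnip3 were 1.41-fold and 1.38-fold lower (limma adjusted p = 0.0068 and 0.014). Bnip3 was 7.88, 7.67 and 7.97 in ΔG, 8.12, 7.94 and 8.21 in WT and 8.38, 8.33 and 8.21 in null, so that WT lay between the mutants.

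Slc16a3 did not pass between the mutants (log2 −0.34, SE 0.12, adjusted p = 0.12), nor did P4ha2 (0.38, SE 0.12, adjusted p = 0.074). Calls for Tpi1 and Pgk1 were lost without ΔG replicate 1 or 2 or null replicate 1 or 2 (adjusted p 0.094 to 0.12). Ldha lost its call without ΔG replicate 1 or 2 (adjusted p = 0.0501 and 0.073) and Bnip3 without ΔG replicate 2 or null replicate 1 (adjusted p = 0.058 and 0.067). Since ΔG and null arrays differ fully in sex pattern, the covariate for Y-linked genes leaves this comparison to rest on the WT arrays. With it no member passed, where 0.266% of all genes did, and Pfkl, Tpi1, Slc2a3 and Pdk1 had log2 differences of −0.69, −0.87, −1.29 and −0.77 (adjusted p 0.052 to 0.12).

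The rest of the pathway gave a mixed picture. Of 15 genes of the oxygen-sensing machinery only Arnt2, a partner of HIF alpha subunits, passed against WT, rising 1.26-fold in null and 1.35-fold in ΔG (limma adjusted p = 0.017 and 0.040). That is 6.67% of these genes in either comparison, where 18.4% of all genes were called in null and 0.813% in ΔG. The ΔG call of Arnt2 was lost without any one of WT replicate 1 or 2, ΔG replicate 2 or 3 and null replicate 1 or 3 (adjusted p 0.058 to 0.16), and the null call without WT replicate 2 or null replicate 3 (0.074 and 0.062). Over all 20 alternatives the ΔG call was lost under 9 and the null call under 4. Hif1a itself had log2 differences of 0.02 in null and −0.10 in ΔG and Vhl, the adaptor that recognises hydroxylated HIF, of −0.22 and −0.15 (adjusted p 0.080 to 0.89). RNA levels do not report HIF protein, which is set by degradation.

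Of 33 further HIF targets 6 rose and 5 fell in null (33.3%, where 18.4% of all genes were called). None passed in ΔG, where 0.813% of all genes were called (limma, 6 at an unadjusted p under 0.05). The medians were −0.07 in null and −0.05 in ΔG. Tfrc, the transferrin receptor, rose 2.33-fold and Fam162a, a mitochondrial protein, 1.59-fold, while Ppp1r3c, a glycogen-targeting phosphatase subunit, fell by 0.97 (limma adjusted p = 0.00015, 0.0011 and 0.00033). Nt5e, the ectonucleotidase CD73, read 6.23, 6.45 and 6.37 in WT, 6.03, 6.03 and 6.13 in ΔG and 6.95, 6.84 and 6.67 in null. It rose 1.38-fold in null (limma adjusted p = 0.0037, or 0.055 against WT replicate 3 alone).

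Around pyruvate, Pdk2, a further pyruvate dehydrogenase kinase, read 8.34, 8.31 and 8.31 in WT, 7.98, 8.07 and 7.98 in ΔG and 7.84, 7.59 and 7.74 in null, where it fell by 0.59 (SE 0.08, limma adjusted p = 0.00037), opposite to Pdk1 and Pdk3. Pdk4, the remaining kinase of this family, had log2 differences of 0.18 in null and 0.28 in ΔG and did not pass (limma adjusted p = 0.40 and 0.41). The opposing phosphatase gene Pdp1 rose 1.31-fold in null (limma adjusted p = 0.013, or 0.054 without WT replicate 2 and 0.051 without null replicate 3). Its call was lost under 4 of the 20 alternatives. Of the 11 genes of pyruvate entry 2 rose and 2 fell in null (36.4%, where 18.4% of all genes were called). Gpd2, of the glycerol phosphate shuttle that reoxidises cytosolic NADH, rose 1.60-fold in null (limma adjusted p = 0.00040). It was the only one of 9 gluconeogenic and glycerol genes to pass there, a share of 11.1% against the same 18.4%. Of 11 pentose phosphate and serine genes, Shmt1 and Shmt2, which feed one-carbon metabolism, rose 1.45-fold and 1.35-fold in null, a share of 18.2% where 18.4% of all genes were called (limma adjusted p = 0.0032 and 0.0097), and none passed in ΔG (2 at an unadjusted p under 0.05).

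Some genes of sugar use did pass in ΔG. Slc16a7, the monocarboxylate transporter MCT2, read 6.82, 6.76 and 6.66 in WT, 7.24, 7.29 and 7.38 in ΔG and 7.58, 7.37 and 7.43 in null. It rose 1.46-fold in ΔG and 1.64-fold in null (limma adjusted p = 0.010 and 0.00016). Eno3, the muscle-type enolase, read 7.82, 7.89 and 7.84 in WT, 8.69, 8.52 and 8.36 in ΔG and 8.01, 7.80 and 7.74 in null. It rose 1.60-fold in ΔG (SE 0.10 on the log2 scale, limma adjusted p = 0.0093), was as much higher against null (adjusted p = 0.0020), and had a log2 difference of −0.00 in null minus WT (adjusted p = 0.99). It was the only call in ΔG among 15 further glycolysis genes (6.67%, where 0.813% of all genes were called). None of the 8 skeletal muscle markers passed in ΔG (limma, 0 at an unadjusted p under 0.05). Slc2a4, the insulin-responsive glucose transporter GLUT4, rose 1.51-fold and Slc2a12 fell by 0.38 in ΔG (limma adjusted p = 0.043 and 0.048). In ΔG, Slc2a4 lost its call on leaving out any array but WT replicate 1 or ΔG replicate 3, and Slc2a12 on leaving out any array but ΔG replicate 3 (adjusted p up to 0.168 and 0.165). Over all 20 alternatives the ΔG call was lost under 11 for Slc2a4 and under 14 for Slc2a12. Slc2a12 also fell in null, by 0.52 (limma adjusted p = 0.00079), a call kept under all 20 alternatives. Slc2a4 had a log2 difference of 0.14 in null and did not pass (limma adjusted p = 0.46).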

How the data were processed

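Total RNA of 9 fibroblast cultures was hybridised to Affymetrix whole-transcript arrays, per the labels' protocols. The deposited values are log2 RMA signals made by the authors with BRB-ArrayTools, per the series text, with RMA and affy also named by the submitters' processing notes. RMA corrects background, normalises by quantiles and summarises each probe set, which compresses small differences. Software versions: not given in the sources used here, nor is the genome build. Of 35512 probe sets, 21789 had 1 gene symbol in the platform annotation, 1621 had several and 12101 none, and 1 probe set had no values.

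Names were checked against RefSeq by gene ID. A single model in limma 3.58.1 under R 4.3.3 estimated the mean of each genotype from all 9 arrays, leaving 6 degrees of freedom for the residual, and p-values were adjusted by Benjamini-Hochberg over 19938 genes, with a threshold of 0.05. The fit was tested on simulated data. Members and lists were chosen with earlier results of these data known. Members called in any comparison, and the lowest p of a role without a call, are given per array, and related lists by counts with up to 4 genes per comparison against WT. Hif1a, Pdk4, the collagens, and the members given per array without a call (Pfkp, Ldhb, Slc2a1, Vegfa and Egln3) were named after their values were seen. Arrays have no depth, and their number limits precision. Alternatives changed normalization, filter, probe set choice, variance model, arrays used, block and sex pattern.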

Additional observations from a re-analysis of the deposited data

How the results depend on the processing

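None of the 20 alternatives turned the sign of a named gene's difference that was recomputed. Without single arrays the number of members called ranged from 8 to 13 in null minus WT, from 0 to 4 in ΔG minus WT, from 5 to 13 in ΔG minus null and from 7 to 16 in the test over 3 genotypes, where 12 passed with all arrays (15.3% of all genes). In the same order, the share of all genes called ranged from 12.8% to 19.5%, 0.311% to 1.26%, 3.82% to 12.1% and 8.42% to 18.4%. With array weights 1 member was called in ΔG minus WT and 14 in ΔG minus null, where 1.46% and 18.5% of all genes were. With the Y-linked covariate 4, 0 and 5 were called in null minus WT, ΔG minus null and over 3 genotypes. The shares of all genes called with it were 7.92%, 0.266% and 6.81%. That covariate gave medians in ΔG minus null of −0.265 for enzymes and −0.0023 for other HIF targets, against −0.139 and −0.134 without it. Without single arrays the medians of enzymes ran from 0.122 to 0.244 in null minus WT and from −0.221 to −0.0431 in ΔG minus null, and those of other HIF targets from −0.0465 to 0.0672 in null minus WT, from −0.159 to −0.0508 in ΔG minus WT and from −0.159 to −0.0694 in ΔG minus null. Only the median of enzymes in ΔG minus WT and that of other HIF targets in null minus WT crossed 0, the former running from −0.00911 to 0.102. Array numbers are shared between groups, but same-numbered arrays correlated in their deviations at −0.0837 to 0.269, over 0.1 in 4 of 9 pairs (all 3 of replicate 2) and in 2 of 18 pairs with different numbers. Whether a number marks a litter was not settled by this, and no pairing was assumed. With the replicate block 1 member, Slc16a3, was called in ΔG minus WT, where 1.06% of all genes were. In null minus WT and ΔG minus null 13 and 11 members passed with this block, where 18.9% and 9.92% of all genes did. With 3 arrays a group, differences near the smallest called here (log2 0.22) are at the limit of what passes. In the simulated data 50 genes were changed at each size. Of true log2 differences of 0.3, 8% were called in ΔG minus WT, 12% in null minus WT and 10% in ΔG minus null. Of differences of 0.5, 56%, 46% and 60% were called. Few genes were changed there, which bears on the adjusted p. A member without a call may thus still differ by such amounts.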
